A study of Mus musculus with 4 samples.

Results

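The enzymes that break down tyrosine were examined as genes whose DNA copy number could change in liver tumours. The set holds 7 genes, Qdpr, Pcbd1, Tat, Hpd, Hgd, Gstz1 and Fah. They were chosen as members of this pathway, with earlier results of these data known. Of these, 6 had probes that carry their name, 11 probes of 161460 autosomal probes and 6 genes of 17965 autosomal genes with a value. Pcbd1 had no probe of its own name and was read from 17 probes near its place on chromosome 10.

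The array compared tumour DNA with normal liver DNA. Liver tumours 239, 240, 244 and 252 came from 4 individual mice, all Fah-/- and Trp53-/-, and their DNA was labelled with Cy5 (n = 4 tumours). The reference was 1 pool of liver DNA from 3 littermates, all Fah+/+ and Trp53+/+, labelled with Cy3 on each array. All mice were labelled male. NTBC (nitisinone) was given in drinking water, at a full dose of 7.5 mg/L, and was reduced to 2.5% of that dose for 6 months. The labels do not say whether the littermates had the same regimen, and ages and the tumour cell content of the samples were not given in the sources used here. With 1 pool as the only control, no test includes the spread among normal livers.

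Tyrosine is degraded mainly in the liver. Tat (tyrosine aminotransferase) takes off the amino group, Hpd (hydroxyphenylpyruvate dioxygenase) makes homogentisate, and Hgd (homogentisate dioxygenase) opens its ring. Gstz1 (maleylacetoacetate isomerase) and Fah (fumarylacetoacetate hydrolase) then yield fumarate and acetoacetate. Qdpr (dihydropteridine reductase) and Pcbd1 (pterin carbinolamine dehydratase) regenerate tetrahydrobiopterin, the cofactor with which phenylalanine is turned into tyrosine. Loss of FAH causes tyrosinaemia, in which fumarylacetoacetate builds up, and NTBC blocks HPD upstream of it.

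All values below are log2 ratios of tumour over pool processed signal, centred on each array's autosomal median, so that 0 is the middle of the genome. In a pure diploid sample a gain of 1 copy would give 0.58 and a loss of 1 copy -1. For each gene 3 quantities were taken: its own probes (gene level), the median of all other probes within 1 Mb (neighbourhood), and the gene minus its neighbourhood. Each was tested against 0 with limma and Benjamini-Hochberg adjustment over all autosomal genes, with a threshold of 0.05. An exact sign-flip permutation test of a single gene cannot go below p = 0.125 with 4 tumours, the value that it gave wherever all 4 tumours had the same sign.

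An array held 180880 spots, and 98.78% to 99.87% of those that were not controls exceeded background clearly in either colour. Next to each other along the genome, probes scattered with an SD of 0.31 to 0.39. Tumour 252 went against its male label: the median of 8723 X probes was 0.73 there, against -0.30 to -0.09 in the other tumours. The median of 122 Y probes was -2.43, against -1.20 to -0.14 in the others. Results are therefore also given without tumour 252. Genomic DNA carries no expression, so the tissue could not be checked by markers.

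Among the 11 probes the lowest means were those of Gstz1 probe 1 (-0.87), Hgd probe 3 (-0.76) and Gstz1 probe 2 (-0.53). Beside them are shown Hgd probe 1, at -0.10, and the probes of Fah, the gene that the mice lack. Hgd probe 4 (-0.35) and the Qdpr probe (-0.30) were lower than Hgd probe 1 and are not printed. Each probe is a 60-base oligo, positions are mm9, the strand is not given in the files, and capitals mark CG dinucleotides. Whether a probe lies in an exon or an intron was not analysed here.
Hgd probe 1, chr16:37583816-37583875: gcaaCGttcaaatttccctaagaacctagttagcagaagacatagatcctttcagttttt
Hgd probe 3, chr16:37606379-37606438: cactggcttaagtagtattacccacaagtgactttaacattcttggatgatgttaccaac
Gstz1 probe 1, chr12:88497245-88497304: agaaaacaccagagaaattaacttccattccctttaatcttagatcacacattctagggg
Gstz1 probe 2, chr12:88505294-88505353: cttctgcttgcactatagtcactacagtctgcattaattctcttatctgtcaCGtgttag
Fah probe 1, chr7:91738276-91738335: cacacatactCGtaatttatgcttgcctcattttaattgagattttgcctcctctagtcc
Fah probe 2, chr7:91747133-91747192: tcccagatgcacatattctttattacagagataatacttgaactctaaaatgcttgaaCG
The 11 probes of the 6 genes had a GC content of 33.3% to 40.0%, around the array's median of 36.7%, and each printed probe held 0 or 1 CG. All 11 were well above background in both colours on all 4 arrays, and none was saturated or marked as an outlier.

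**Figure D1:**
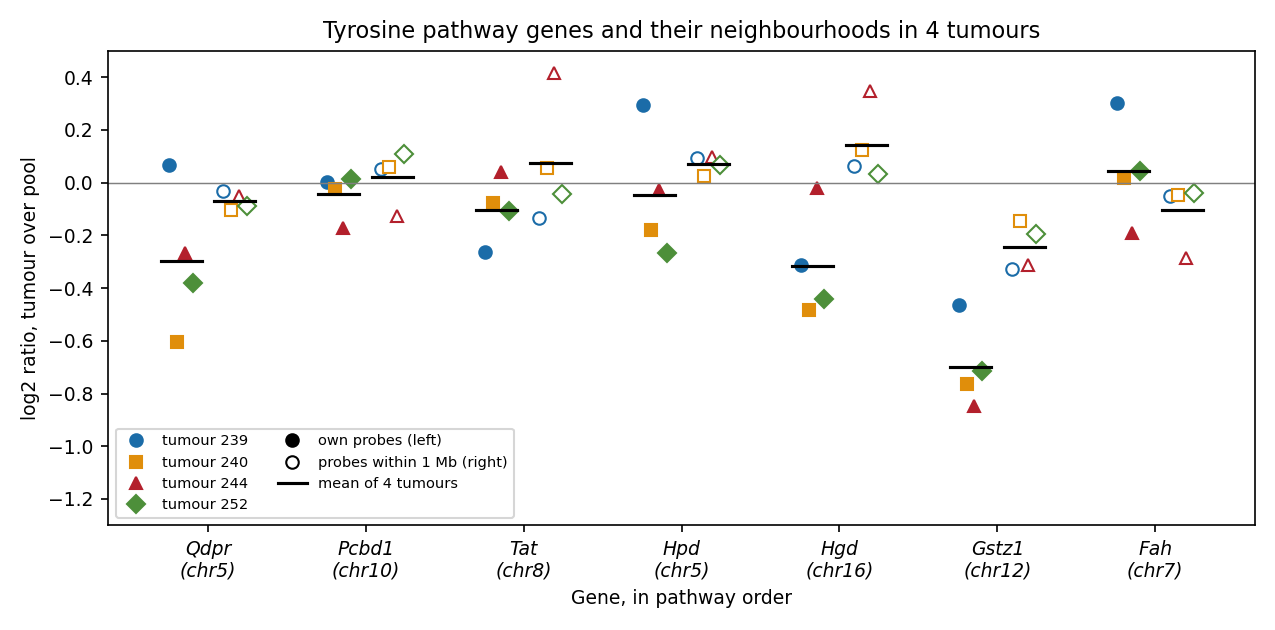
Log2 ratio of tumour over pool for the 7 genes in pathway order, with 1 symbol per tumour, filled for the gene's own probes and open for the other probes within 1 Mb, and a bar at the mean of the 4 tumours. Gstz1 sits at -0.85 to -0.47 in its own probes and at -0.33 to -0.14 in its neighbourhood, while Hgd's own probes lie below its neighbourhood in each tumour.

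The 3 gene levels that passed the test were all lower in the tumours: Gstz1 at a mean of -0.70, Hgd at -0.31 and Qdpr at -0.30. Tat, Hpd, Pcbd1 and Fah did not pass, with means of -0.10, -0.05, -0.05 and 0.04. Across all 17965 genes 38.9% passed in either direction, 21.2% above 0 and 17.7% below 0, so 3 of 7 passing is near the share of all genes, and the common direction of the 3 was not tested. Ordered by mean, every gene's range over tumours overlapped that of the next one. The overlap was narrowest between Gstz1, whose highest tumour was at -0.47, and Hgd, whose lowest was at -0.48.

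Of the neighbourhoods, that of Gstz1 alone passed. Over all genes 10.7% of neighbourhoods passed in either direction, 7.18% above 0 and 3.53% below 0. That background changed with the tumours used. In limma 0 neighbourhoods passed without tumour 239, 1245 without 240, 5794 without 244 and 0 without 252, against 1925 with all 4. At an unadjusted limma p under 0.05 these counts were 3640, 3054, 7884 and 3229, against 4955 with all 4. The adjusted and unadjusted counts thus did not rank the tumours alike, and the cause was not tested. For gene minus neighbourhood Hgd, Gstz1 and Tat passed, all below 0. Over all genes 47.2% passed in either direction, 23.4% above 0 and 23.8% below 0, so 3 of 7 passing is again near the share of all genes.

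Qdpr, on chromosome 5, had 1 probe, which spread widely over the tumours. It was at 0.07, -0.60, -0.27 and -0.38 in tumours 239, 240, 244 and 252 (mean -0.30 ± 0.28, SD, n = 4, limma adjusted p = 0.0335). Tumour 239 was above 0 and the others below. The call was lost without tumour 240 (-0.19, adjusted p = 0.176), tumour 244 (-0.31, adjusted p = 0.104) or tumour 252 (-0.27, adjusted p = 0.0951), with lowess on intensity (-0.26, adjusted p = 0.0515), and with normexp background correction, which starts from the raw mean and background signals (-0.02, adjusted p = 0.836). Among genes with 1 probe 50.1% passed in either direction and 23.3% below 0.

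Around the dihydropteridine reductase gene the region was close to 0. The 135 neighbouring probes had medians of -0.03, -0.10, -0.05 and -0.09 in tumours 239, 240, 244 and 252 (mean -0.07 ± 0.03, SD, n = 4, limma adjusted p = 0.202). The difference of Qdpr from them, -0.23 ± 0.25, did not pass (adjusted p = 0.0858), and it did without tumour 239 (-0.34, adjusted p = 0.00801). Of the neighbours 28 had a lower mean than the Qdpr probe.

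Pcbd1 could be placed by gene order alone. In the RefSeq table of build GRCm38.p6 it lies between Unc5b and Sgpl1, 4313 bp from Sgpl1, and 17 probes within 100 kb of the first Sgpl1 probe stand for it here, 8 of which carry another gene's name. They averaged 0.00, -0.02, -0.17 and 0.01 in tumours 239, 240, 244 and 252 (mean -0.05 ± 0.08, SD, n = 4, limma adjusted p = 0.59). The 189 probes around them were at 0.05, 0.06, -0.13 and 0.11 (mean 0.02 ± 0.10, SD, n = 4, limma adjusted p = 0.782). In both sets tumour 244 was the lowest, and chromosome 10 had a median of -0.24 there, against -0.02 to 0.02 in the others.

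The difference between the Pcbd1 probes and their neighbourhood was -0.07 ± 0.03 (SD, n = 4, limma adjusted p = 0.125). The 12 probes between Unc5b and Sgpl1, 269.0 kb apart, gave a level of -0.04 (adjusted p = 0.631). The 17 probes had means of -0.58 to 0.53, which shows how far single probes scatter in a stretch whose average is near 0.

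Tat, which starts the pathway, sits on chromosome 8 and had 1 probe. It was at -0.26, -0.08, 0.04 and -0.11 in tumours 239, 240, 244 and 252 (mean -0.10 ± 0.13, SD, n = 4, limma adjusted p = 0.249). Its neighbourhood was high in tumour 244, at -0.14, 0.06, 0.42 and -0.04 over 172 probes (mean 0.07 ± 0.24, SD, n = 4, limma adjusted p = 0.62). Chromosome 8 had a median of 0.34 in tumour 244, against -0.08 to -0.02 in the others. The Tat probe did not show this height in tumour 244.

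Gene minus neighbourhood for Tat was -0.13, -0.13, -0.37 and -0.06 in tumours 239, 240, 244 and 252 (mean -0.18 ± 0.14, SD, n = 4, limma adjusted p = 0.0449). The call was lost without any one tumour, with adjusted p of 0.0583, 0.101, 0.116 and 0.0577 without tumours 239, 240, 244 and 252, and the value was -0.11 without tumour 244. It was also lost with neighbourhoods of 500 kb (-0.16, adjusted p = 0.0675) and 2 Mb (-0.15, adjusted p = 0.0823) and with lowess on intensity (-0.09, adjusted p = 0.257), and with normexp it turned to 0.05 (adjusted p = 0.488). Among genes with 1 probe 55.7% passed in this quantity, and 47 of the 172 neighbours were lower than the probe of Tat.

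Hpd, the target of NTBC, lies on chromosome 5, as does Qdpr, and also had 1 probe. Its ratio was 0.29, -0.18, -0.03 and -0.27 in tumours 239, 240, 244 and 252 (mean -0.05 ± 0.25, SD, n = 4, limma adjusted p = 0.712). As for Qdpr, tumour 239 was above 0 and the others below. The probe was dim, with a tumour signal of 470, 406, 326 and 367 against 378, 453, 325 and 445 in the pool. With normexp it was at -0.53 (adjusted p = 0.000562), and without tumour 252 it was at 0.03.

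The Hpd region was slightly above 0 in all tumours, at 0.09, 0.03, 0.10 and 0.07 over 202 probes (mean 0.07 ± 0.03, SD, n = 4, limma adjusted p = 0.196). Gene minus neighbourhood was -0.12 ± 0.23 (adjusted p = 0.301). Without tumour 239 it was -0.22 (adjusted p = 0.0154) and with normexp -0.62 (adjusted p = 0.00153), so the call for Hpd depends on that tumour and on the background correction. Of the neighbours 67 had a lower mean than the probe of Hpd.

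Hgd, on chromosome 16, lay below its surroundings in all 4 tumours. Its 4 probes averaged -0.31, -0.48, -0.02 and -0.44 in tumours 239, 240, 244 and 252 (mean -0.31 ± 0.21, SD, n = 4, limma adjusted p = 0.0126). Tumour 244 stood close to 0 and the others below it. The gene level call was lost without tumour 240 (-0.26, adjusted p = 0.0732) and without tumour 252 (-0.27, adjusted p = 0.0561).

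The neighbourhood of Hgd lay on the other side of 0. Its 185 probes had medians of 0.06, 0.12, 0.35 and 0.03 in tumours 239, 240, 244 and 252 (mean 0.14 ± 0.14, SD, n = 4, limma adjusted p = 0.171, not passed). Chromosome 16 as a whole was at 0.01, 0.07, 0.32 and -0.003 in the same tumours, so tumour 244 was high along the chromosome. Gene minus neighbourhood was therefore alike in all tumours, at -0.38, -0.61, -0.37 and -0.47 (mean -0.46 ± 0.11, SD, n = 4, limma adjusted p = 0.0015). It passed under all 16 alternatives, at -0.49 to -0.40 with adjusted p from 0.000471 to 0.00982. Of 1266 other genes with 4 probes 1.26% had a lower mean difference.

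The 4 probes of Hgd did not share this level. Probe 3 had a tumour signal of 358, 333, 491 and 358 in tumours 239, 240, 244 and 252, against 677, 607, 669 and 603 in the pool. Its log2 ratios of -0.94, -0.89, -0.48 and -0.74 averaged -0.76, lower than all but 2 of 185 neighbours. Probes 1, 2 and 4 averaged -0.10, -0.04 and -0.35. With normexp probes 1, 2, 3 and 4 were at 0.29, -0.50, -1.02 and 0.14, so probes 1 and 4 changed sign. With the median of the probes in place of their mean, Hgd's level was -0.26 (adjusted p = 0.0198). Of all autosomal probes 6.93% had a mean below -0.5 and 1.44% below -0.9.

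The probes beside Hgd were mixed as well. Rabl3, 12.1 kb to one side, averaged 0.03 ± 0.10 over 3 probes (SD, n = 4). Ndufb4, 29.2 kb to the other, had 1 probe at -1.24, -1.12, -0.85 and -1.03 in tumours 239, 240, 244 and 252, a mean of -1.06 (limma adjusted p = 1.08e-05). Among all probes within 1 Mb, single low probes stand among higher neighbours at each of the 7 genes. At Fah the lowest, with means of -2.53 and -2.18, lay at higher positions than the gene, where most probes had a negative mean.

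**Figure D2:**
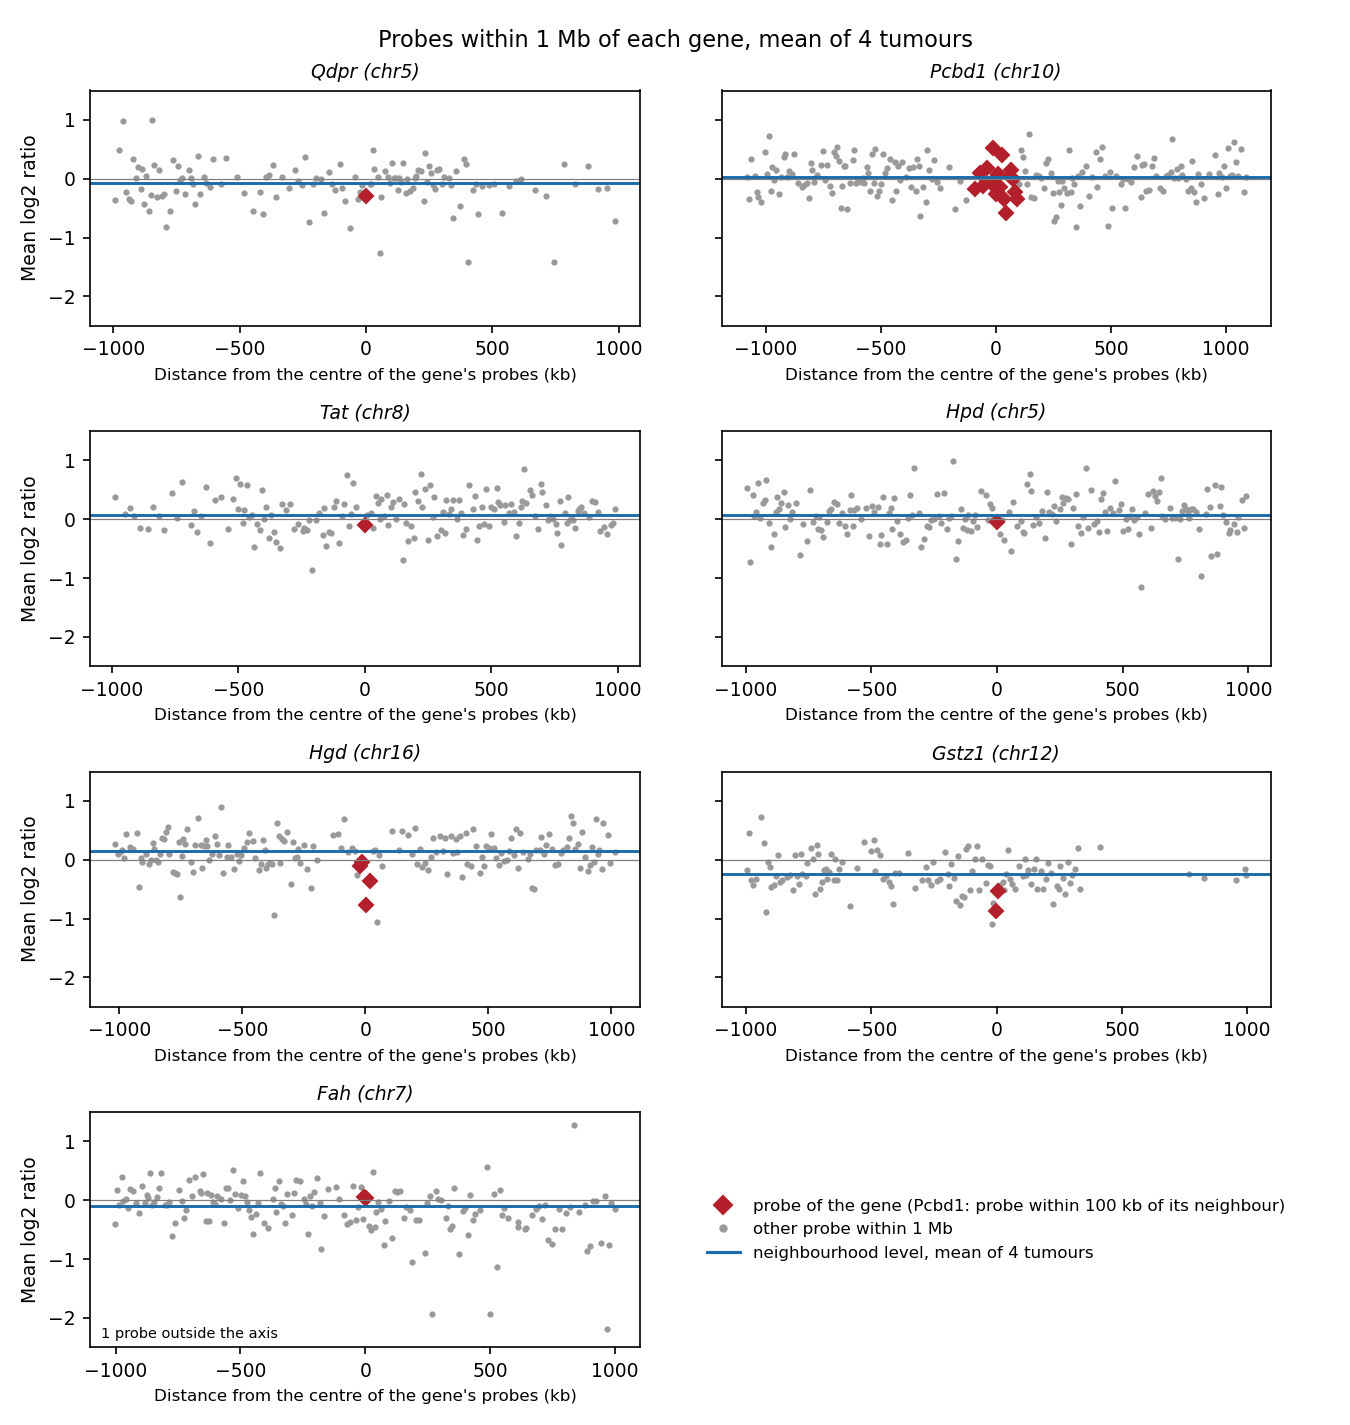
Mean log2 ratio of tumour over pool over the 4 tumours for every probe within 1 Mb of each gene, against distance in kb from the centre of the gene's probes, with the gene's own probes as diamonds, other probes as dots and a line at the mean neighbourhood level. The line is below 0 for Gstz1 at -0.25 and above 0 for Hgd at 0.14, and the dots show the scatter of single probes around it.

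Gstz1, on chromosome 12, was the lowest of the 7 genes. Its 2 probes averaged -0.47, -0.76, -0.85 and -0.71 in tumours 239, 240, 244 and 252 (mean -0.70 ± 0.16, SD, n = 4, limma adjusted p = 0.000137). All 4 tumours lay below 0, with tumour 239 closest to it. Among the 3232 other genes with 2 probes, 0.866% had a lower mean. The call held under all 13 alternatives, with means of -0.78 to -0.37, the smallest with normexp (-0.37) and lowess (-0.48), and without tumour 252 the mean was -0.69 (adjusted p = 0.000282).

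The region around Gstz1 was also low. Its 130 neighbouring probes had a median of -0.33, -0.14, -0.31 and -0.20 in tumours 239, 240, 244 and 252 (mean -0.25 ± 0.09, SD, n = 4, limma adjusted p = 0.0157). This call was lost without tumour 239 (-0.22, adjusted p = 0.108) and without tumour 252 (-0.26, adjusted p = 0.0742). In either case 0 of 17966 neighbourhoods passed over all genes. The whole of chromosome 12 had medians of -0.38, -0.20, -0.38 and -0.24 in the same tumours, so the neighbourhood lay 0.05 to 0.07 above its chromosome in each. The low level of the region thus followed that of the chromosome in every tumour.

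The maleylacetoacetate isomerase gene lay lower still than this region. The difference of gene minus neighbourhood was -0.14, -0.62, -0.53 and -0.52 in tumours 239, 240, 244 and 252 (mean -0.45 ± 0.22, SD, n = 4, limma adjusted p = 0.00653). It was small in tumour 239 and of like size in the other tumours. With normexp the difference was -0.12 and did not pass (adjusted p = 0.163), and with lowess on intensity it was -0.22 (adjusted p = 0.0275). Without tumour 252 it was -0.43 (adjusted p = 0.0311).

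Gstz1 probe 1 was bright. Its tumour signal was 7147, 5215, 4743 and 4680 in tumours 239, 240, 244 and 252, against 9993, 10096, 9814 and 8771 in the pool on the same arrays. Tumour was below pool on each array, and the mean of the probe was -0.87, with 2 of the 130 neighbours lower. Probe 2 averaged -0.53, with 12 of the 130 lower. Pomt2, 9.42 kb to one side, averaged -0.48 ± 0.05 over 5 probes (SD, n = 4, limma adjusted p = 0.000301), and Tmed8, 10.6 kb to the other, -0.39 ± 0.11 over 4 probes (adjusted p = 0.00151). Both also lay below their own neighbourhoods, Pomt2 by -0.23 (limma adjusted p = 0.00545) and Tmed8 by -0.14, which did not pass (adjusted p = 0.117).

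Fah, the gene that the tumour mice lack by genotype, did not differ from the pool in its probes by more than the spread between tumours. On chromosome 7 its 2 probes had 0.30, 0.02, -0.19 and 0.05 in tumours 239, 240, 244 and 252 (mean 0.04 ± 0.20, SD, n = 4, limma adjusted p = 0.689). Tumour 239 was highest and tumour 244 lowest, on either side of 0. The sources used here do not give the bases that the mutant allele of Fah lacks, and its probes are no check of the genotype. The mean turned to -0.04 without tumour 239, and without tumour 252 it was 0.04.

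The Fah region was low in tumour 244. The 174 neighbouring probes had medians of -0.05, -0.05, -0.28 and -0.04 in tumours 239, 240, 244 and 252 (mean -0.11 ± 0.12, SD, n = 4, limma adjusted p = 0.233). Chromosome 7 had a median of -0.21 in tumour 244, against 0.00 to 0.02 in the others. Fah lay above its neighbourhood in all 4 tumours, by 0.35, 0.06, 0.09 and 0.09, a mean of 0.15 ± 0.14 (SD, n = 4) that did not pass (limma adjusted p = 0.0713). Each Fah probe was higher than 120 of the 174 neighbours. The difference passed under 4 alternatives, a neighbourhood of 500 kb (0.19, adjusted p = 0.0253), the mean of the neighbours (0.21, adjusted p = 0.0281), normexp (0.14, adjusted p = 0.045) and genes with at least 2 probes (0.15, adjusted p = 0.0461). The sides of the Fah region were unlike. At higher positions most probes had a negative mean, while at lower positions negative and positive means were mixed. Zfand6, 19.1 kb after Fah, averaged -0.25 ± 0.21 over 8 probes (SD, n = 4, limma adjusted p = 0.0335). Gm2115, 13.2 kb before it, averaged -0.07 ± 0.09 over 5 probes (adjusted p = 0.417). The part of the unlike sides in the difference of Fah was not tested.

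**Figure D3:**
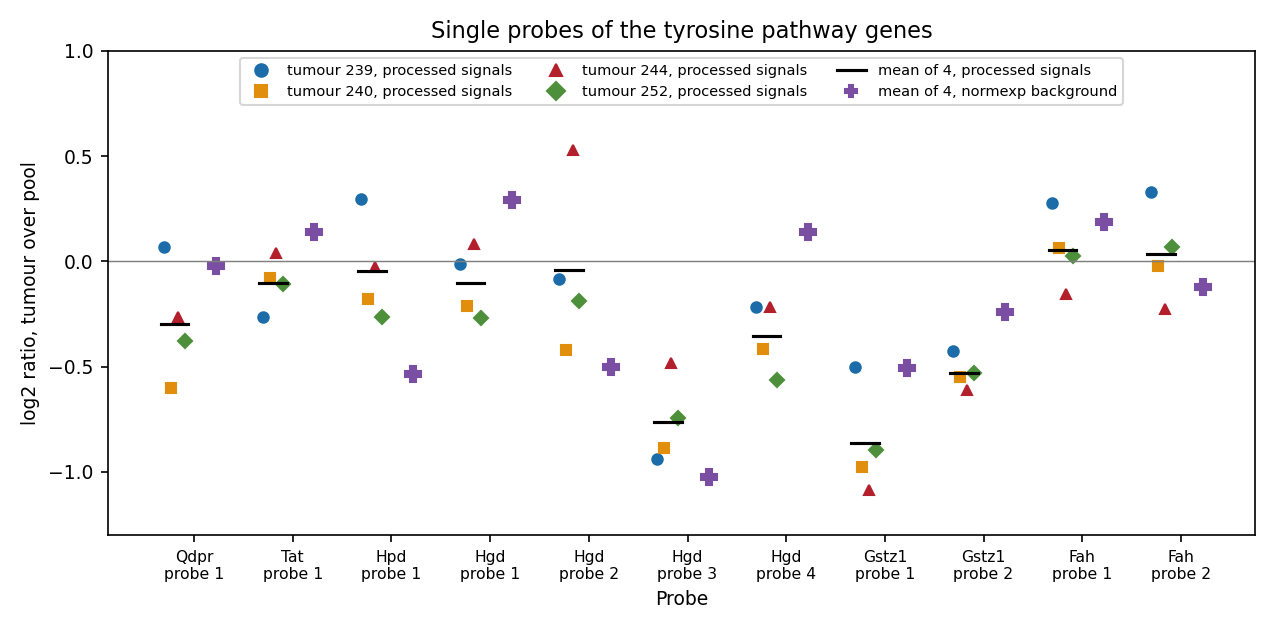
Log2 ratio of tumour over pool for each of the 11 probes of the 6 named genes, with 1 symbol per tumour and a bar at the mean for the processed signals, and a plus sign at the mean after normexp background correction. Hgd probe 3 and both Gstz1 probes stay below 0 in either processing. Under normexp the Hpd probe moves to -0.53, Hgd probe 1 to 0.29 and Hgd probe 4 to 0.14.

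Without tumour 252, Gstz1 passed at gene level and Hgd and Gstz1 passed against their neighbourhoods. Over all 17965 genes 4657 passed at gene level then, and 5633 passed against their neighbourhoods. Of the neighbourhoods of the 7 genes 0 passed, as did 0 of 17966 over all genes. Tumour 239 was the highest of the 4 at the own probes of Qdpr, Hpd, Gstz1 and Fah and the lowest at Tat. Tumour 244 had the highest neighbourhood at Tat, Hpd and Hgd and the lowest at Pcbd1 and Fah.

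How often a gene passes depended on its number of probes. For gene minus neighbourhood 55.7% of genes with 1 probe, 51.8% with 2 probes, 43.1% with 4 probes and 27.4% with 10 or more passed in either direction. The differences of all 17965 genes correlated between tumours with Pearson's r of 0.74 to 0.88 across genes, which share the pool, the slide and the probes. The lowest values, 0.74 to 0.75, were those with tumour 239. Their part in the values of Hgd, Gstz1 and Tat was not tested.

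**Figure D4:**
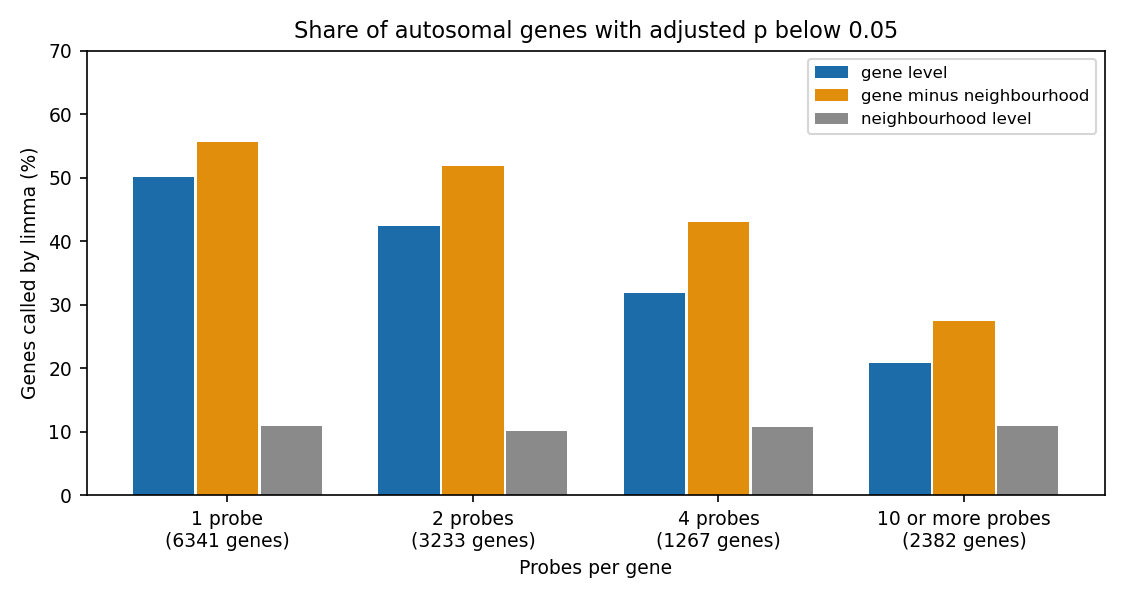
Percentage of autosomal genes with limma adjusted p below 0.05, by number of probes per gene, for the gene level, the gene minus its neighbourhood and the neighbourhood. The bars for the gene level drop to 20.9% at 10 or more probes, against 50.1% at 1 probe, while the neighbourhood bars stay at 10.1% to 10.9%.

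The wider pathway was followed through 44 genes in 5 lists, of which 36 had a value. At gene level 10 passed above 0 and 5 below, 41.7% of them, against 38.9% of all genes. Against their neighbourhoods 11 of the 36 passed above 0 and 7 below, where 47.2% of all genes passed in either direction. The medians of the 36 were 0.09 at gene level and 0.04 for the difference, and over all genes they were 0.02 and 0.00. For the 7 tyrosine enzyme genes the medians were -0.10 and -0.18.

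Among 7 cofactor genes with a value, those that make or regenerate tetrahydrobiopterin, 4 passed above their neighbourhood and 1 below. Gch1, which starts its synthesis, had a gene level of 0.26 ± 0.07 (SD, n = 4, limma adjusted p = 0.00813), and Pts and Spr, which carry out the steps after it, had 0.25 and 0.23 (adjusted p = 0.0347 and 0.0415). Cbr1, a carbonyl reductase, was at -0.41 ± 0.28 (SD, n = 4, adjusted p = 0.0072) from 1 probe. It is on chromosome 16, as is Hgd, its neighbourhood averaged 0.20, and its difference from it was -0.61 (adjusted p = 0.01).

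Of 5 transaminases and related enzymes, 1 passed above its neighbourhood and 1 below. Got1, the cytosolic aspartate aminotransferase, was at 0.50, 0.39, 0.74 and 0.48 in tumours 239, 240, 244 and 252 from 2 probes, a mean of 0.53 (limma adjusted p = 0.000489). All 4 tumours were above 0. Among 8 relatives of the last steps and enzymes of their products 2 passed above and 0 below. Fahd2a, which belongs to the same protein family as Fah, was at 0.45, 0.60, 0.62 and 0.58 in those tumours from 1 probe, a mean of 0.56 (adjusted p = 0.000171). Fh1, the fumarate hydratase that takes up the fumarate made by Fah, was at 0.25 (adjusted p = 0.00887), and Oxct1, which activates acetoacetate, at 0.26 (adjusted p = 0.0101). Oxct1 is on chromosome 15, whose median averaged 0.27, and did not pass against its neighbourhood (0.10, adjusted p = 0.0531).

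Of 9 genes for other fates of tyrosine, 2 passed above their neighbourhood and 4 below. Tyr and Dct, enzymes of melanin synthesis, were at -0.40 and -0.37 at gene level (limma adjusted p = 0.00134 and 0.00129). Of 7 genes for transport of aromatic amino acids, 2 passed above and 1 below. Slc3a2, the heavy chain of amino acid exchangers, was 0.25 above its neighbourhood (adjusted p = 0.0101), and Slc6a19, a neutral amino acid transporter, was at -0.23 against it (adjusted p = 0.00954).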

How the data were processed

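Genomic DNA of 4 liver tumours (Cy5) and 1 pool of normal liver DNA (Cy3) was hybridised to 2-colour Agilent mouse CGH arrays, all on 1 slide in 1 scan per the file headers, so no batch could be tested. Per the submitters' processing notes, Agilent Feature Extraction 12.0.0 read the scans. Per the file headers, the processed intensity had its background subtracted, spatial and multiplicative trends removed and the dyes normalised linearly, and positions are mm9. The deposited log10 ratio is tumour over pool. The authors' value table matched it to within 0.00497, with array medians of 0.000212 to 0.00233, uncentred. Flags for outlying, saturated and clearly detected spots are the scanner software's, per the file headers. The number of arrays limits the precision.

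After removing 6575 control spots and 95 to 120 outlier spots from every array, values were averaged per probe, and log2 ratios were centred on the median over chromosomes 1 to 19, with no loess or quantile step. Genes (mean of probes named for them, case ignored), neighbourhoods (at least 10 probes) and their differences entered an intercept-only limma fit (version 3.58.1, R 4.3.3). The fit was also run on simulated data with independent noise in each tumour. Those data hold no shared pool or probe effect, so they do not test the fit in that setting. The alternatives were centring on the mode, normexp (offset 50), the authors' table, lowess on intensity, probe filters, flagged spots kept, the median of a gene's probes, genes with at least 2 probes, neighbourhoods of 500 kb and 2 Mb, the mean of neighbours, robust eBayes and leaving out each tumour. The text names the 7 genes, the nearest gene with a probe on each side, and listed genes that passed (at most 10 per test by size), except 1 that is not reported here. The members and lists were chosen with earlier results of these data known. The stand-in for Pcbd1 was chosen after seeing which probes the files hold. Kyat1 and Kyat3 carry older names in the files, and Gchfr, Il4i1, Hpdl, Fahd1, Gstp1, Gstk1, Th and Pnmt had no value.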

Additional observations from a re-analysis of the deposited data

Results flagged for a closer look

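Of 21 sets of 4 tumours tested for a single outlying tumour with Dixon's test at the 95% level, 2 were marked, and chance marks about 1 in 20. The neighbourhood of Fah was at -0.285 in tumour 244, where the other tumours lay between -0.05 and -0.04, with a gap of 0.959 of the whole range. The difference of Fah from its neighbourhood was 0.353 in tumour 239, where the others lay between 0.07 and 0.09, with a gap of 0.902 of the range.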

How the results depend on the processing

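Of 302 values of the 7 genes under alternative settings, 266 kept their direction and their side of the threshold, 17 lost the call, 11 gained it and 8 changed sign. The sign changes were the level of Tat (0.14) and the difference of Tat (0.0522) with normexp, and the neighbourhood of Pcbd1 with normexp (-0.0079) and at 500 kb (-0.011). Leaving out 1 tumour in turn also changed signs. The level of Hpd lay between -0.1584 (without tumour 239) and 0.0282 (without tumour 252), that of Fah between -0.0423 (without 239) and 0.1226 (without 244), the neighbourhood of Pcbd1 between -0.0065 (without 252) and 0.0721 (without 244) and that of Tat between -0.0413 (without 244) and 0.1425 (without 239). The cause was not tested. Over all genes, 4227 passed at gene level with at least 2 probes, against 6980, and 1202 neighbourhoods, against 1925, where fewer genes were tested. Leaving out a tumour gave 0 to 5794 neighbourhoods and 5438 (without tumour 244) to 9283 differences, against 8482, with 5633 without tumour 252 and 5712 without tumour 240. With normexp 3800 gene levels passed above 0 and 4848 below (main setting 3803 and 3177), and 769 and 680 neighbourhoods (main setting 1290 and 635). Without tumour 244 the neighbourhoods of Qdpr and Pcbd1 passed (adjusted p = 0.0394 and 0.039). With at least 2 probes, Qdpr, Tat and Hpd have no value. The placement of Pcbd1 by the probes between its neighbours was added after seeing the data. No paired analysis was possible because all 4 tumours form 1 group against 1 pool.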
